A study of Mus musculus with 8 samples.

Results

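The nuclear factor I (NFI) family comprises the 4 transcription factor genes Nfia, Nfib, Nfic and Nfix. All 4 were found by symbol among the 14166 genes counted in nuclei of the embryonic mouse dorsal telencephalon, the tissue that forms the cerebral cortex. The groups were 4 wildtype and 4 Pantr2 knockout samples at stage E15.5, when cortical neurons are being born, all on the C57BL/6J strain; the protocol writes the knockout as Pantr2-/-, and Pantr2 is a long noncoding RNA gene. The labels do not say whether a sample held 1 embryo or several, nor whether the knockout samples came from 1 founder line, so the p-values below measure the spread between these samples. The targeted gene was not analysed here, and the genotypes rest on the labels.

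NFI proteins bind DNA as dimers, with themselves or with one another, through an N-terminal domain that is much alike in all family members and recognises a palindromic site. In the developing cortex Nfia, Nfib and Nfix are known from radial glia, the apical progenitors that line the ventricle, where they promote the passage from proliferation to neuron and glia formation, and from young neurons, deep-layer neurons among them. Mice that lack Nfia or Nfib fail to form a normal corpus callosum, and mice that lack Nfix have enlarged ventricles. Nfic is best known from tooth root formation.

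The DNA-binding region shows how close the 4 genes are and bears on whether counts of one can be told from counts of another. The coding stretches below are from 1 GENCODE M21 transcript of each gene (GRCm38), coding strand, 5′ to 3′, and the capitals mark a run of 17 bases that all 4 share.
Nfia: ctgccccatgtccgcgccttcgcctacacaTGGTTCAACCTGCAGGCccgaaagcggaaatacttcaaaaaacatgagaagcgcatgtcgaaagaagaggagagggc
Nfib: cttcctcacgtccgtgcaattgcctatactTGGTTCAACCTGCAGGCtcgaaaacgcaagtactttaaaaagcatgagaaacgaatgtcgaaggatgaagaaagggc
Nfic: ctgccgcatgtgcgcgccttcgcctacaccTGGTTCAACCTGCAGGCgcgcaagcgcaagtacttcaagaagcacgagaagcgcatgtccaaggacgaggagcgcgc
Nfix: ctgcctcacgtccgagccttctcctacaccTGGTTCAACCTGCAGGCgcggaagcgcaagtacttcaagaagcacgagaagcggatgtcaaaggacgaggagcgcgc
Over these 107 bases Nfic and Nfix differ at 8 positions and Nfib and Nfic at 24. Over 450 coding bases from the start of the shared run, identity without gaps lay between 75.6% for Nfia with Nfic and 82.0% for Nfic with Nfix. Nfic and Nfix also share the 32-base run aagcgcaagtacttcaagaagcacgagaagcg, which holds 2 stretches of 31 bases. No other pair of members shared any stretch of 31 bases in its spliced transcripts, so little of that sequence could give a read of one member to another. Introns were not compared.

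On GRCm38, Nfia (ENSMUSG00000028565) lies on chromosome 4 from 97772734 to 98118874 on the plus strand, and Nfib (ENSMUSG00000008575) on chromosome 4 from 82290173 to 82705750 on the minus strand. Nfic (ENSMUSG00000055053) lies on chromosome 10 from 81396186 to 81455635 and Nfix (ENSMUSG00000001911) on chromosome 8 from 84699876 to 84800344, both on the minus strand. Nfia overlaps E130114P18Rik on the opposite strand. Whether the counting used strand is not given in the sources used here, so UMIs of these 2 genes may not be told apart. Nfib, Nfic and Nfix overlap other annotated genes too, which are not among the genes counted here.

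The data held 67319 nuclei, 33781 of them wildtype and 33538 knockout, and each sample held between 20446698 and 34083796 unique molecular identifiers (UMIs, each standing for 1 captured transcript). Nuclei carry the authors' cluster numbers 1 to 7. By marker genes in wildtype samples, cluster 4 was apical progenitor-like (6 of 6 markers highest there) and cluster 5 intermediate progenitor-like (5 of 6). Cluster 1 was upper-layer excitatory neuron-like (4 of 5), and clusters 2 and 3 deep-layer excitatory neuron-like (3 and 5 of 8). These names are used below for both genotypes, at times without the suffix. Clusters 6 and 7 stayed unnamed. Of the nuclei, 507 barcodes occurred in 2 libraries and 3 in 3 libraries. Levels are given as CPM, the UMIs of a gene in a set of nuclei of a sample, scaled to a total of 1000000 UMIs of those nuclei. Such levels are not compared between genes. In sums over nuclei, fewer cells of a type and less RNA per cell cannot be told apart.

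In wildtype cortex the transcripts of Nfia, Nfib and Nfix were most abundant in the intermediate progenitor-like cluster 5 and least abundant in cluster 6, and Nfic stood highest in the apical progenitors. Nfia was at 3177 ± 242 CPM in cluster 5 (mean ± SD, n = 4 here and below). Then came cluster 4 with 3060 ± 83.2, cluster 3 with 2750 ± 157, cluster 7 with 1890 ± 150, cluster 2 with 1830 ± 326, cluster 1 with 1555 ± 129 and cluster 6 with 480 ± 39.8 CPM. The highest cluster was 6.62 times the lowest. Clusters 5 and 4, and clusters 7 and 2, did not differ beyond the SD of their ratio within samples.

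Nfib varied less between wildtype clusters, 2.64-fold from highest to lowest. Cluster 5 led with 5166 ± 277 CPM, followed by cluster 3 (4781 ± 202), cluster 1 (4121 ± 187), cluster 2 (4110 ± 484), cluster 4 (3599 ± 240), cluster 7 (3454 ± 139) and cluster 6 (1960 ± 175). Clusters 1 and 2, and clusters 4 and 7, did not differ beyond that SD. The apical progenitors, second highest for Nfia, were thus in the lower part of the order for Nfib.

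Nfix had the same extremes. Cluster 5 had 730 ± 79.0 CPM, cluster 4 had 568 ± 57.2, cluster 7 had 560 ± 56.7, cluster 1 had 531 ± 60.8, cluster 3 had 471 ± 42.8, cluster 2 had 426 ± 55.2 and cluster 6 had 186 ± 23.0. Clusters 4, 7 and 1 were neighbours that did not differ beyond the SD of their ratios.

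Nfic was captured far less often, with 5088 UMIs in all nuclei of the 8 samples together. Cluster 4 stood apart at 43.3 ± 3.94 CPM, and its lowest sample (37.9) lay above the highest sample of any other wildtype cluster (33.6, in cluster 7). The other wildtype clusters lay between 20.1 ± 1.87 in cluster 3 and 27.1 ± 4.76 in cluster 7, and of their neighbours in the order, clusters 1 and 5 alone differed beyond the SD of their ratio. Cluster 4 held 14.5% of wildtype UMIs and 25.1% of the UMIs of Nfic.

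**Figure D1:**
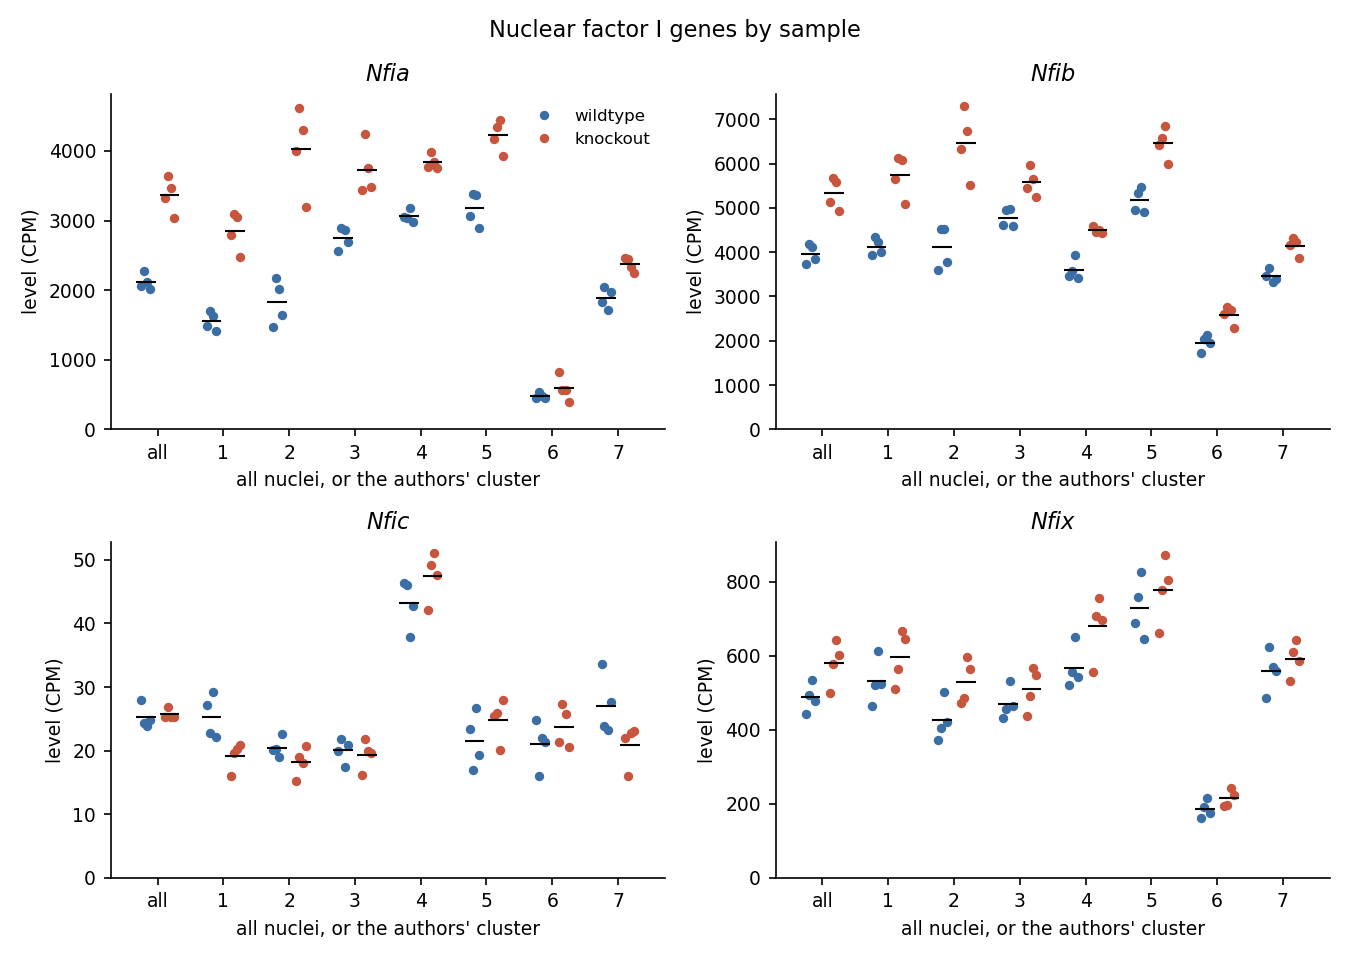
Level of each NFI gene in CPM (vertical axes from 0, scaled per gene) over all nuclei and in each of the authors' clusters, with 1 point per sample, wildtype in blue and knockout in red, and black bars for group means. The knockout points of Nfia and Nfib lie above all wildtype points in every cluster apart from Nfia in cluster 6, while those of Nfix overlap the wildtype points. The share of all genes without overlap is not given by cluster or over all nuclei.

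Across the 56 sums of 8 samples and 7 clusters, Nfia, Nfib and Nfix followed one another and Nfic did not. Pearson's r of log2(CPM + 1) was 0.90 for Nfia with Nfib, 0.88 for Nfia with Nfix and 0.79 for Nfib with Nfix. Nfic had r of -0.17 with Nfib, 0.14 with Nfia and 0.21 with Nfix. These values are descriptions: the sums share libraries, depth and clusters, and genotype enters them too.

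Among all genes with a mean of at least 20 CPM, the 5 most like Nfia were Zfp521 (r = 0.92), Nfib, Nfix, Sik3 (0.87) and Vrk2 (0.86). Zfp521 encodes a zinc finger protein, Sik3 a salt-inducible kinase and Vrk2 a vaccinia-related kinase. Those most like Nfib were Nfia, the teneurin Tenm4 (0.88), the scaffold gene Dlg1 (0.83), the Wnt inhibitor Apcdd1 (0.80) and Zfp521 (0.79). Those most like Nfix were Nfia, Bfar (0.87), the polarity gene Pard3 (0.85), Vrk2 (0.84) and the syntaxin Stx8 (0.84). Nfic had other neighbours, among them Tbl1x, Nsd2, Notch2 and Rpa1, each at r = 0.87. Notch2 is a receptor of radial glia and Rpa1 a subunit of the replication protein that coats single-stranded DNA, and these 4 genes peaked in cluster 4, as Nfic did.

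Knockout samples were then compared with wildtype samples, which asks whether the transcript levels of the family differ between the genotypes. Over all nuclei Nfia and Nfib were higher in the knockout samples. Nfia was at 2065, 2281, 2119 and 2021 CPM in wildtype replicates 1 to 4 and at 3323, 3645, 3466 and 3043 in the knockout replicates. The lowest knockout sample thus lay well above the highest wildtype sample. The group levels were 2122 ± 114 and 3369 ± 254, a log2 fold change of 0.68 ± 0.07 (SE; 1.60-fold) with an adjusted p of 9.0e-04 by edgeR's quasi-likelihood test, with Benjamini-Hochberg adjustment over all genes as in every adjusted p here.

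Nfib was at 3722, 4182, 4123 and 3840 CPM in the wildtype replicates and at 5138, 5668, 5574 and 4931 in the knockout replicates. These groups did not overlap either. Its log2 fold change was 0.44 ± 0.08 (1.35-fold; edgeR adjusted p = 0.0138). Leaving out wildtype replicate 4 (adjusted p = 0.0571), knockout replicate 2 (0.0537) or knockout replicate 3 (0.0635) ended this call, with log2 fold changes between 0.41 and 0.42.

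Nfix was at 444, 493, 536 and 478 CPM in the wildtype replicates and at 500, 577, 644 and 603 in the knockout replicates. The groups overlapped, while each knockout sample lay above the wildtype sample of the same number. Its log2 fold change of 0.27 ± 0.10 was not called (edgeR adjusted p = 0.174). In a fit blocked on replicate number it came to 0.26 and was called (adjusted p = 0.0131). Nfic was at 28.0, 24.3, 23.9 and 24.8 CPM in wildtype and 25.3, 26.9, 25.3 and 25.3 CPM in knockout. These groups overlapped and its log2 fold change was 0.04 ± 0.06 (adjusted p = 0.775).

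Called means an adjusted p under 0.05 by edgeR. Over all nuclei 2 of the 4 members were called higher, where 1.67% of the 13927 genes tested were called higher and 5.26% called in either direction. The clusters took different shares of the nuclei in the 2 genotypes; cluster 6, where Nfia, Nfib and Nfix are lowest, held 11.3% of wildtype and 6.16% of knockout UMIs. With equal weight for each cluster, the log2 difference was 0.54 for Nfia and 0.38 for Nfib (two-sided exact permutation p = 0.0286 each, the smallest that 4 against 4 samples allow). It was 0.18 for Nfix (exact permutation p = 0.171).

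Within clusters, the difference of Nfia was largest in the deep-layer-like neurons of cluster 2. There it was at 1473, 2180, 2019 and 1647 CPM in the wildtype replicates and at 4005, 4615, 4305 and 3196 in the knockout replicates. Every knockout sample lay above every wildtype sample, and both groups were widely spread. The log2 fold change was 1.14 ± 0.13 (2.21-fold; edgeR adjusted p = 1.5e-04).

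In the same cluster Nfib was at 3603, 4528, 4519 and 3788 CPM in wildtype and at 6325, 7302, 6728 and 5512 CPM in knockout. The groups did not overlap, and knockout replicate 4 was the lowest of its group for both genes. The log2 fold change was 0.66 ± 0.10 (1.58-fold; edgeR adjusted p = 0.00114).

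In the upper-layer-like neurons of cluster 1, Nfia was at 1481, 1697, 1624 and 1416 CPM in wildtype and at 2790, 3089, 3045 and 2478 in knockout, again without overlap. The log2 fold change was 0.91 ± 0.08 (1.87-fold; edgeR adjusted p = 1.64e-05). Nfib rose there too, with 4121 ± 187 CPM in wildtype and 5737 ± 487 in knockout; its log2 fold change was 0.51 ± 0.07 (edgeR adjusted p = 6.80e-04).

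In the apical progenitors of cluster 4, Nfia was at 3046, 3041, 3176 and 2977 CPM in wildtype and at 3766, 3986, 3839 and 3750 in knockout. These narrow groups did not overlap, and the log2 fold change was 0.35 ± 0.06 (1.28-fold; edgeR adjusted p = 0.00483). Nfib stood at 3599 ± 240 CPM in wildtype and 4491 ± 75.3 in knockout, and its log2 fold change was 0.34 ± 0.07 (edgeR adjusted p = 0.0126). The call of Nfib was lost without wildtype replicate 1 (adjusted p = 0.0582), 2 (0.0521) or 4 (0.0529).

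In the remaining clusters the estimates had the same direction. Nfia was called in cluster 3 (log2 fold change 0.47 ± 0.08, edgeR adjusted p = 0.00454), cluster 5 (0.44 ± 0.07, 0.00663) and cluster 7 (0.36 ± 0.07, 0.0223). In cluster 6 its knockout samples ran from 389 to 826 CPM and overlapped the wildtype range of 446 to 534 (0.31 ± 0.17, adjusted p = 0.576). Nfib was called in cluster 3 (0.25 ± 0.06, 0.0494), cluster 5 (0.35 ± 0.07, 0.0194) and cluster 7 (0.29 ± 0.07, 0.0482). In cluster 6 it missed the threshold (0.42 ± 0.09, adjusted p = 0.0578), although its knockout samples (2297 to 2759 CPM) all lay above the wildtype samples (1723 to 2124), and it was called there with the replicate number as a block (adjusted p = 0.00538).

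Several of these calls were lost when single libraries were left out. Leaving out any 1 of wildtype replicates 1, 3 and 4 or of knockout replicates 2 and 3 ended the call of Nfia in cluster 7 (adjusted p between 0.0536 and 0.0896). For Nfib in cluster 5 the same held of wildtype replicates 1, 2 and 4 and of knockout replicates 2 and 3 (0.0554 to 0.0722). In clusters 3 and 7 that of Nfib was lost on leaving out any 1 library other than knockout replicate 4 (0.0609 to 0.174 and 0.0689 to 0.171).

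Read against the share of all tested genes that were called higher, Nfia and Nfib were both called in cluster 1 (2.54%), cluster 2 (3.92%), cluster 3 (1.48%), cluster 4 (1.17%), cluster 5 (0.868%) and cluster 7 (0.578%), and neither in cluster 6 (0.352%). Shares of all genes without overlap between the groups are not given by cluster or over all nuclei.

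Nfix and Nfic were called in no cluster by edgeR or by DESeq2; at an unadjusted p under 0.05, Nfix passed in 2 clusters (2 and 4) and Nfic in 1 (cluster 1) with either tool. The log2 fold change of Nfix ran from 0.11 ± 0.09 in cluster 7 to 0.32 ± 0.10 in cluster 2, where the edgeR adjusted p was lowest, at 0.0799. With the replicate number as a block Nfix was called in cluster 1 (log2 fold change 0.20, adjusted p = 0.0350) and cluster 2 (0.32, 0.00481). Leaving out wildtype replicate 3 (adjusted p = 0.0117) or knockout replicate 1 (0.0496) gave a call of Nfix in cluster 2, and leaving out knockout replicate 1 gave one in cluster 4 (0.0346). In cluster 1 Nfic was at 27.1, 22.7, 29.2 and 22.2 CPM in wildtype and at 16.0, 19.7, 20.3 and 20.9 in knockout. The groups did not overlap, but the log2 fold change of -0.33 ± 0.13 missed the threshold (edgeR adjusted p = 0.188) with 838 UMIs in all. In cluster 7 the groups of Nfic did not overlap either, at 23.2 to 33.6 CPM in wildtype and 16.0 to 23.0 in knockout. The log2 fold change there was -0.32 ± 0.16 (edgeR adjusted p = 0.568), with 406 UMIs.

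**Figure D2:**
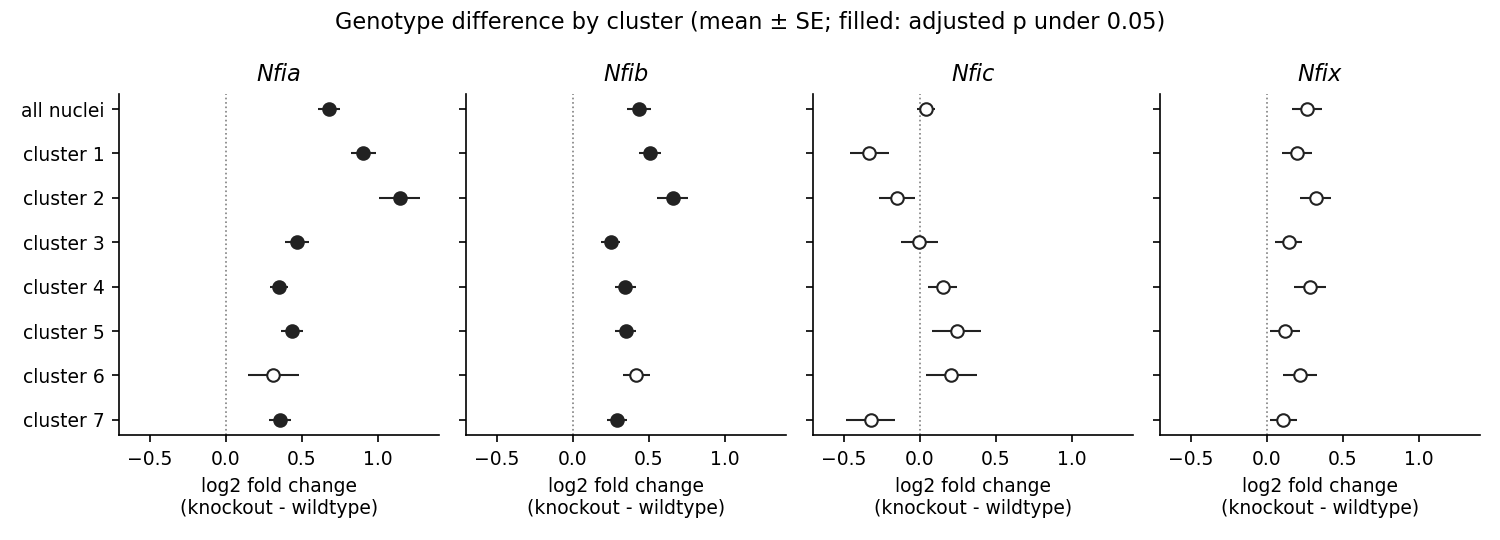
Log2 fold change of each NFI gene, knockout minus wildtype, over all nuclei and in each cluster (horizontal axis; points are edgeR estimates, bars 1 SE, n = 4 per group, filled points have an adjusted p under 0.05). Nfia runs from 0.31 in cluster 6 to 1.14 in cluster 2, Nfib from 0.25 in cluster 3 to 0.66 in cluster 2, and no point of Nfix or Nfic is filled.

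Whether the genotype difference itself differed between clusters was tested with an interaction term for each cluster, 1 test per gene over all 7 clusters. The edgeR adjusted p was 5.72e-06 for Nfia, 0.00136 for Nfib, 0.0266 for Nfic and 0.190 for Nfix, where 9.12% of all 12933 genes tested were called. Against cluster 1, the log2 difference of Nfia was 0.24 larger in cluster 2 and lower by 0.45 to 0.61 in clusters 3 to 7 (terms between -0.61 and -0.45). The terms of Nfib were 0.15 in cluster 2 and between -0.27 and -0.10 in clusters 3 to 7. The term of Nfic was positive in every other cluster, up to 0.61 in cluster 5. The call of Nfic was lost without wildtype replicate 1 (adjusted p = 0.0924) or 4 (0.0919) or knockout replicate 1 (0.0795), 2 (0.218) or 3 (0.0501).

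With these differences the order of the cluster means changed. In knockout samples Nfia was at 4223 ± 226 CPM in cluster 5 and at 4030 ± 609 in cluster 2, which in wildtype stood below clusters 4, 3 and 7. For Nfib cluster 2 had a mean of 6467 ± 752 CPM, beside 6459 ± 360 in cluster 5, but was higher than cluster 5 in 1 of 4 knockout samples. Clusters 2 and 5 did not differ beyond the SD of their ratio for either gene. For Nfia the same held of clusters 2 and 4 and of clusters 4 and 3 in knockout. It also held of clusters 7 and 2 in wildtype. Cluster 6 stayed lowest for Nfia, Nfib and Nfix, and cluster 4 stayed highest for Nfic (47.5 ± 3.84 CPM).

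Nuclei were then described one by one after thinning each to 1400 UMIs, so that depth is the same. In cluster 2 the median nucleus held 1 to 2 UMIs of Nfia in the wildtype samples and 4 to 6 in the knockout samples. The nucleus at the 90th percentile held 5 to 6 and 9 to 12 UMIs. Nuclei with no UMI of Nfia made up 15.6% to 28.9% of wildtype and 3.93% to 7.88% of knockout samples (6.56% to 16.1% and 1.13% to 3.81% before thinning). Low, middle and high nuclei were thus all shifted. In cluster 6, where Nfia is lowest, nuclei with none made up 59.8% to 66.2% in wildtype and 53.7% to 63.1% in knockout.

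Nfib shifted in the same way in cluster 2. The 10th percentile went from 1 to 2 UMIs to 3 to 5, the median from 5 to 6 to 8 to 10 and the 90th percentile from 9 to 11 to 13 to 16. In cluster 4 the shift was smaller: the median of Nfia went from 4 to 5 in every sample, and that of Nfib from 4 to 5 UMIs to 6. Nuclei of 1 sample are not replicates, and these values carry no test.

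**Figure D3:**
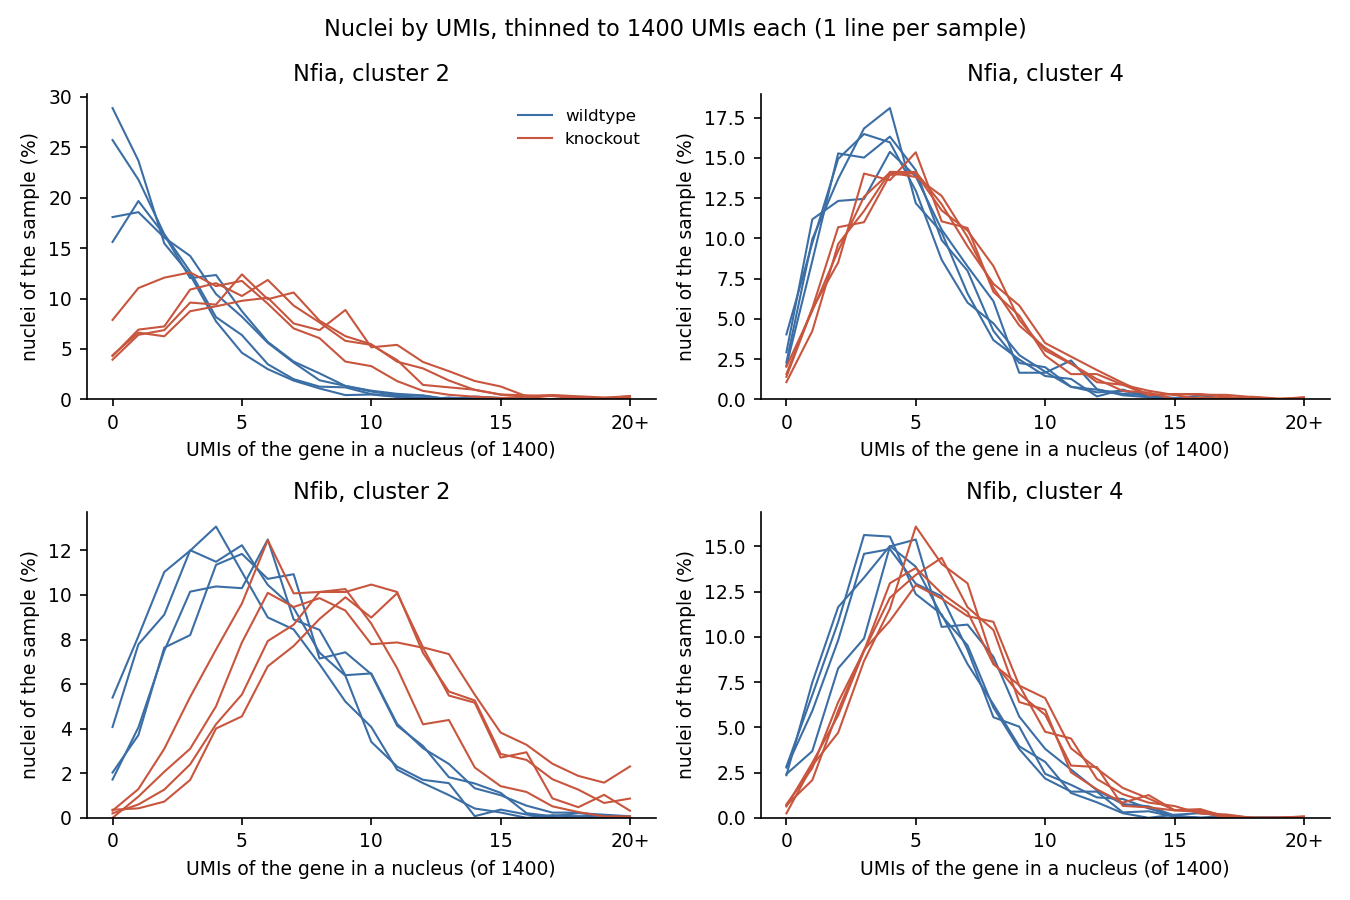
Share of nuclei of a sample (vertical axis, percent) by the UMIs of Nfia (upper row) or Nfib (lower row) in a nucleus thinned to 1400 UMIs (horizontal axis), in cluster 2 (left) and cluster 4 (right), with 1 line per sample, wildtype blue and knockout red. In cluster 2 the knockout curves are lower at few UMIs and higher at many UMIs than the wildtype curves, and in cluster 4 the shift is about 1 UMI.

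Summed levels of cell type markers differed between the genotypes inside the same clusters. In cluster 2 the sum of 8 deep-layer markers was 8147 to 9817 CPM in wildtype and 11210 to 13265 in knockout, most of it Sox5 (means of 4653 and 7099). In cluster 1 the deep-layer sum was 2485 to 2965 CPM in wildtype and 3718 to 5100 in knockout, again mainly through Sox5 (1377 and 2973). The sum of 5 upper-layer markers was lower in the knockout samples of both clusters, without overlap. In cluster 2 it was 2191 to 3585 CPM in wildtype and 700 to 1185 in knockout. In cluster 1 it was 5981 to 7083 CPM in wildtype and 3544 to 5201 in knockout. The part of these sums in the differences of Nfia and Nfib was not tested.

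In cluster 4 the sum of 6 apical progenitor markers was 2067 to 2215 CPM in wildtype and 1361 to 1485 in knockout. Most of that gap was 1 gene, Ptprz1 (means of 1600 and 911 CPM), while Pax6 was at 62.1 and 66.0, Nes at 51.2 and 58.2 and Vim at 347 and 317. Markers of other cell types had lower sums in the knockout samples of this cluster, without overlap for 3 astrocyte markers (115 to 198 and 50.2 to 74.4 CPM), 4 oligodendrocyte precursor markers (9.80 to 11.8 and 1.65 to 3.07), 3 pericyte markers (26.2 to 27.4 and 8.87 to 13.6) and 4 endothelial markers (9.65 to 12.7 and 5.49 to 8.19). That of 5 interneuron markers was 46.2 to 90.1 in wildtype and 19.2 to 61.6 in knockout, with overlap. Not all of these falls were particular to cluster 4. The oligodendrocyte precursor sum was also lower without overlap in clusters 1, 2, 3, 5 and 7. The interneuron sum was lower without overlap in cluster 1 (33.8 to 56.3 and 12.2 to 26.8) and cluster 2 (33.0 to 41.3 and 11.4 to 29.4). No marker on these lists was at 0 in cluster 4. Their part in the differences of Nfia and Nfib was not tested.

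Mitochondrial genes took 1.66% to 2.31% of UMIs in wildtype and 1.70% to 2.32% in knockout samples.

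Neighbouring and similarly long genes were set beside Nfia and Nfib, both of which span over 300 kb. Of 354 other genes that long with a mean of at least 100 CPM, 19 were called higher and 43 lower over all nuclei, with a median log2 fold change of -0.04. Of these 354, 1 had a larger log2 fold change than Nfia and 11 a larger one than Nfib. The same counts were 1 and 11 of 302 in cluster 2, 6 and 18 of 267 in cluster 1 and 31 and 33 of 316 in cluster 4, and long genes were called higher and lower 39 and 33 times in cluster 1, 54 and 78 in cluster 2, 18 and 28 in cluster 4 and 19 and 11 in cluster 5. Over all nuclei, of the 41 genes tested within 5 Mb of Nfia, 3 were called higher and 3 lower. Of the 23 within 5 Mb of Nfib, 1 was called higher and 2 lower. In cluster 2, 4 were called higher and 3 lower of 34 near Nfia, and 1 and 2 of 19 near Nfib. Shares of all genes tested, at any length and level, that were called in either direction were 5.26% over all nuclei and 4.84% in cluster 1. They were 9.11% in cluster 2, 4.29% in cluster 4 and 1.77% in cluster 5. E130114P18Rik, the gene opposite Nfia, was at 280 ± 24.2 CPM in wildtype and 346 ± 54.9 in knockout over all nuclei (log2 fold change 0.32, edgeR adjusted p = 0.0953). It was called higher in cluster 2 (0.58, 0.00794) and cluster 3 (0.39, 0.0472), while in cluster 4 its log2 fold change was 0.03 (0.892).

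Apical progenitors were also ordered by the authors' cell cycle angle, which runs once around the cycle in radians. The S range ran from 1.57 to 3.14, the G2/M range from 3.14 to 5.50, and the G1/G0 range from 5.50 over 0 to 0.785. They held 5734, 3634 and 1036 nuclei of cluster 4, with as few as 67 per sample at the G1/G0 angle. Nfia, Nfib and Nfix changed little along the angle. Nfia was at 3080 ± 265 CPM at the G1/G0 angle, 2956 ± 76.2 at the S angle and 3236 ± 146 at the G2/M angle in wildtype samples. Nfib was at 3647 ± 473, 3644 ± 249 and 3552 ± 211 CPM, and Nfix at 582 ± 136, 571 ± 56.1 and 566 ± 54.6 CPM.

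Against the G1/G0 angle, with sample as a block, the log2 fold change at the S angle was -0.10 ± 0.05 for Nfia (edgeR adjusted p = 0.161), -0.02 ± 0.04 for Nfib (0.788) and -0.07 ± 0.05 for Nfix (0.396). At the G2/M angle it was 0.02 ± 0.05 for Nfia (0.83), -0.05 ± 0.04 for Nfib (0.433) and -0.06 ± 0.06 for Nfix (0.495). Nfia at the S angle was called once nuclei were thinned to 1400 UMIs (-0.15, adjusted p = 0.0327).

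Nfic was the member that passed. It was higher at the S angle by 0.51 ± 0.17 on the log2 scale (edgeR adjusted p = 0.0260) and at the G2/M angle by 0.58 ± 0.17 (adjusted p = 0.00947), each in 7 of 8 samples. Of all 10932 genes tested, 11.3% were called higher at the S angle and 13.5% at the G2/M angle. The G1/G0 range held 82 UMIs of Nfic in the 8 samples together. After thinning to 1400 UMIs both calls were lost (0.34, adjusted p = 0.277, and 0.38, adjusted p = 0.200). The S call was also lost by DESeq2 (0.0569) and without wildtype replicate 1 (0.107) or 2 (0.0817) or knockout replicate 1 (0.0702).

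The genotype difference of Nfia and Nfib was present at each of these angles. At the G1/G0 angle Nfia was at 3012, 3385, 3167 and 2755 CPM in wildtype and at 3568, 4993, 4763 and 3912 in knockout. Nfib was at 3302, 3812, 4242 and 3233 CPM and at 4969, 4812, 4824 and 4739. At the G2/M angle the ranges were 3150 to 3454 and 3915 to 3977 CPM for Nfia and 3427 to 3867 and 4248 to 4558 for Nfib. Every knockout sample lay above every wildtype sample for these 2 members at the G1/G0 angle (2.20% of all genes), the S angle (2.91%) and the G2/M angle (3.08%). At the G2/M angle this held for Nfic too, at 37.6 to 44.6 CPM in wildtype and 44.8 to 65.2 in knockout.

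An interaction of genotype with angle was not called for any member: the edgeR adjusted p was 0.456 for Nfic, 0.593 for Nfia, 0.656 for Nfix and 0.681 for Nfib (0.832% of all genes were called, and of the 4 members Nfic had an unadjusted p under 0.05, 0.0242).

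**Figure D4:**
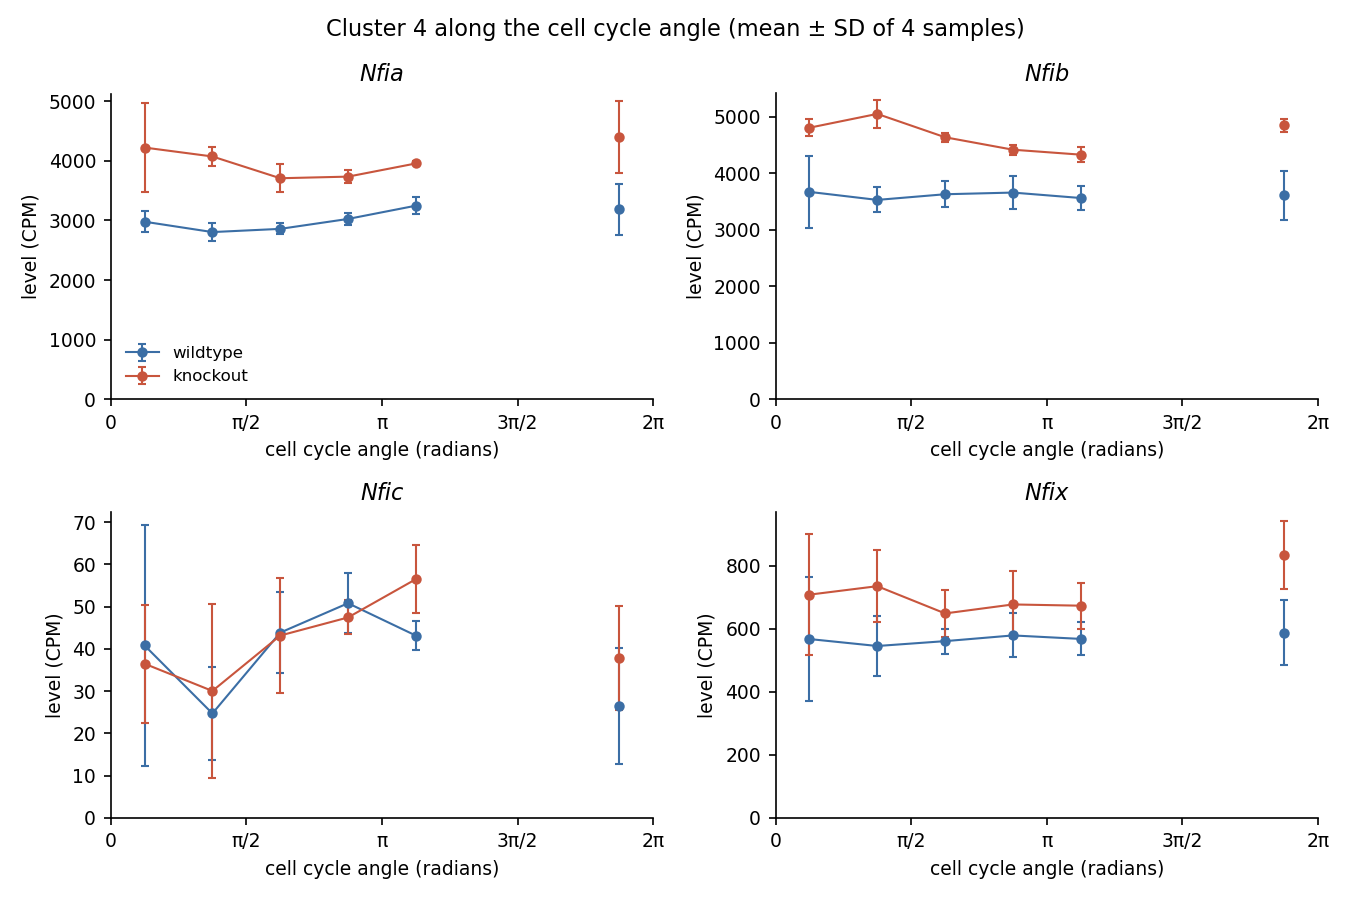
Level of each NFI gene in CPM (vertical axes from 0) in apical progenitors of cluster 4 by the cell cycle angle in 8 equal bins (horizontal axis, radians), as the mean ± SD of 4 samples, wildtype blue and knockout red; the 2 bins between 5π/4 and 7π/4 in which some samples had under 20 nuclei are left out. The red points of Nfia and Nfib lie above the blue ones in each bin shown, and the levels of Nfic have wide errors where nuclei are few.

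Last, 22 genes were examined, of which 21 were counted here. They are known as targets, regulators or partners of NFI factors in cortex, or as radial glia and astrocyte genes that depend on them. The list was chosen with earlier results of these data known, so its counts may not be independent of these data. In cluster 4, 7 of the 19 tested fell in the knockout samples and none rose (4.29% of all genes were called in either direction), and the median log2 fold change was -0.10 beside 0.01 for all genes. Aldh1l1, a folate enzyme of radial glia and astrocytes, fell from 29.0 ± 4.11 to 7.08 ± 2.08 CPM (log2 fold change -1.96 ± 0.19, edgeR adjusted p = 9.69e-05). Tenascin C (Tnc), an extracellular matrix protein, fell from 156 ± 13.2 to 66.3 ± 16.5 CPM (-1.23 ± 0.15, 4.75e-04).

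The glutamate transporters Slc1a2 and Slc1a3 fell as well. Slc1a2 went from 121 ± 34.0 to 52.6 ± 11.7 CPM (edgeR adjusted p = 0.00447) and Slc1a3 from 843 ± 55.4 to 577 ± 56.6 (0.00311). The neurotrophin receptor gene Ntrk2 fell from 154 ± 29.5 to 93.7 ± 7.52 CPM (0.00523), Zcchc24 from 41.7 ± 6.38 to 21.0 ± 7.46 (0.0178) and the fatty acid binding protein gene Fabp7 from 721 ± 143 to 487 ± 73.7 (0.0459). All 7 were without overlap between the groups, but they were picked by their calls in these same samples. The share of all genes without overlap in this cluster is not given here. Sox9, a glial transcription factor that induces Nfia, was at 61.8 ± 11.3 and 50.8 ± 4.54 CPM (adjusted p = 0.336). Hes1, a Notch effector that NFI factors repress, was at 19.2 ± 2.89 and 18.04 ± 1.64 CPM (0.875). Ezh2, a Polycomb methyltransferase whose gene is an NFI target, was at 353 ± 16.4 and 392 ± 23.0 CPM (0.205). The marker sums of other cell types and the level of Ptprz1 that differ in this cluster are given above; the astrocyte sum is made up of Aldh1l1, Slc1a2 and Aqp4, which are on this list too. The levels of NFI genes and of these genes were not tied to each other by any test.

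Among the neurons, in cluster 2, 4 of 17 rose and none fell (9.11% of all genes called; list median 0.17, all genes 0.00): the cell adhesion gene Cntn2 from 48.9 ± 3.47 to 83.6 ± 10.1 CPM (edgeR adjusted p = 2.23e-04), Apcdd1 from 16.8 ± 4.98 to 49.9 ± 19.8 (0.00188), Mmd2 from 64.9 ± 5.98 to 87.7 ± 7.63 (0.00753) and the HMG box gene Bbx from 58.6 ± 7.64 to 81.9 ± 10.8 (0.0137). In cluster 1, Cntn2, Apcdd1 and Bbx rose and Tnc and Ntrk2 fell (5 of 17, beside 4.84% of all genes; list median -0.04, all genes 0.00). In cluster 1 Apcdd1 went from 9.54 ± 2.85 to 31.9 ± 14.9 CPM (adjusted p = 0.00269).

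Elsewhere fewer of the listed genes changed. Bbx rose in cluster 3 (1 of 17 tested; 3.36% of all genes called) and Apcdd1 in cluster 5 (1 of 17; 1.77%). None was called by edgeR in cluster 6 (0 of 16, beside 0.779% of all genes) or cluster 7 (0 of 15, beside 1.03%). There 4 and 1 listed genes had an unadjusted p under 0.05, and DESeq2 called 1 and 0. Shares of all genes by those other measures are not given here. Over all nuclei Bbx and Apcdd1 rose and Aldh1l1, Tnc and Ntrk2 fell, 5 of 21 (5.26% of all genes called). This count rested on the libraries. It was 0 once knockout replicate 3 was left out, 1 for knockout replicate 2 and 3 for wildtype replicate 1. It was 2 for wildtype replicate 3 and for wildtype replicate 4. Shares of all genes called with a library left out are not given here.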

How the data were processed

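Libraries of 4 wildtype and 4 Pantr2 knockout samples were made from single nuclei with a 10x Genomics 3′ kit. The submitters' processing notes name kallisto, bustools and mm10, with no versions. The authors deposited UMI counts per gene and nucleus, as raw whole numbers per the file headers, with cluster numbers and a cell cycle angle in radians (another value, per the file headers). Doublet scores were deposited too, all under 0.5, and no nucleus was removed here. The gene table's positions differ from GRCm38 and its build is not named; coordinates printed are those of GENCODE M21.

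For each sample, UMIs were added up over all its nuclei, by cluster and by angle range. Genotypes were compared in edgeR 4.0.16 under R 4.3.3 using TMM, filterByExpr, glmQLFit and glmQLFTest, genotype as the only term, Benjamini-Hochberg adjustment over all genes tested, threshold 0.05. DESeq2 1.42.0, library totals without TMM, no filter, sex, the replicate block, and leaving out each sample were alternatives. Sex was inferred for each sample from Xist against Y-linked genes. This gave 3 female and 1 male wildtype samples, and 2 female and 2 male knockout samples. TMM against totals moved the median gene by less than 0.1 on the log2 scale. Fits were tested on simulated counts. Angle ranges were compared with sample as a block, and 4 equal parts of the circle and thinning each nucleus to 1400 UMIs were alternatives. Marker sums and levels are plain CPM.

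Replicate numbers pair the samples by the rule used: the correlations of deviations of same-numbered samples, across genes, were 0.398, 0.185, 0.192 and 0.179, each over 0.1. Some different-numbered samples passed 0.1 too: wildtype 3 with knockout 4 (0.287), wildtype 2 with knockout 3 (0.167) and wildtype 1 with knockout 2 (0.113). The rule thus does not set the same-numbered pairs apart from all others, and calls made with the replicate block rest on this pairing. The family members, the lists and the rule for named genes (all members; up to 8 listed genes with the smallest adjusted p, and Fabp7, Slc1a3, Hes1, Ezh2 and Sox9; 5 most alike genes per member, of which 1 is not reported here) were chosen with earlier results of these data known. Zcchc24 and Mmd2 were named after their values were seen. The counts of Pantr2 were not analysed here.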

Additional observations from a re-analysis of the deposited data

Results flagged for a closer look

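The genotype difference varied between clusters for Nfia (edgeR adjusted p of the interaction = 5.72e-06), Nfib (0.00136) and Nfic (0.0266). Among the groups of 4 samples of the members, 88 were screened for a sample far from the other 3, and chance flags about 1 in 20. Over all nuclei, Nfic in knockout replicate 2 (26.9 CPM) stood above the others (25.3 each). In cluster 7, Nfic in knockout replicate 2 (16.0 CPM) stood below the others (22.0 to 23.0). At the G2/M angle, wildtype replicate 3 was high for Nfia (3454 CPM, others 3150 to 3169) and for Nfib (3867, others 3427 to 3461), and knockout replicate 1 was high for Nfib (4558, others 4248 to 4283). At the S angle, knockout replicate 4 was low for Nfib (4391 CPM, others 4513 to 4531).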

How the results depend on the processing

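Of 604 values of the 48 member results under alternative settings, 538 kept their direction and side of the threshold. The calls of Nfia over all nuclei and in clusters 1 to 5, and of Nfib in clusters 1 and 2, held under all 13 alternatives with an adjusted p. With the replicate block, which pairs same-numbered samples, Nfix was called over all nuclei (log2 fold change 0.26) and in clusters 1 (0.20) and 2 (0.32), Nfib was called in cluster 6 (0.42), and the count of listed genes called was 2 in clusters 3 and 5 and 1 in cluster 6; it was 7 over all nuclei, 6 in cluster 1 and 5 in cluster 2 (5, 5 and 4 without the block). The block changed no other call of a member in these fits. Nfib in cluster 6 was also called by DESeq2 (0.42), without a filter (0.42) and with sex as a factor (0.44). Nfib lost its call in cluster 3 without a filter (0.25) and in cluster 7 with library totals only (0.26). By DESeq2, 8 listed genes were called over all nuclei and 1 in cluster 6, and Nfic lost its S call (0.48). In cluster 3, 2 listed genes were called with library totals only and with sex as a factor. Shares of all genes called under these alternatives are not given here, so these counts of listed genes are not read against them. Thinning gave 0.34 and 0.38 for Nfic at the S and G2/M angles and -0.15 for Nfia at the S angle, now called.

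Signs of values near 0 turned for Nfic in cluster 3 with sex as a factor (0.016) and over all nuclei with equal cluster weights (-0.065), for Nfia at the G2/M angle with library totals only (-0.025) and after thinning (-0.012), and for Nfib at the S angle without a filter (0.027). Leaving out 1 sample gave log2 fold changes of 0.32 to 0.39 for Nfia in cluster 7, and for Nfib 0.21 to 0.28 in cluster 3, 0.32 to 0.40 in cluster 4, 0.32 to 0.39 in cluster 5, 0.36 to 0.47 in cluster 6, 0.27 to 0.32 in cluster 7 and 0.40 to 0.47 over all nuclei. It gave 0.26 to 0.42 for Nfix in cluster 2, 0.23 to 0.37 for Nfix in cluster 4, -0.076 to 0.073 for Nfic in cluster 3, 0.43 to 0.60 for Nfic at the S angle, -0.0080 to 0.075 for Nfia and -0.093 to 0.0015 for Nfix at the G2/M angle, and adjusted p-values of 0.0233 to 0.218 for the interaction of Nfic with cluster. Counts of listed genes ran from 0 to 5 over all nuclei, 3 to 4 in cluster 1 and 0 to 1 in clusters 3, 5, 6 and 7. The matching shares of all genes are not given here. The causes were not tested, beyond fewer samples in a fit. Depth limits Nfic most, with 387 UMIs in cluster 6 and 82 at the G1/G0 angle.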
